A study of Mus musculus with 9 samples.

Results

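Whole-lung gene expression was compared between mice that lacked DJ-1 and had been challenged with ovalbumin (DJ-1 KO OVA) and wild-type mice that had been given phosphate-buffered saline in its place (WT PBS). Each group had 3 libraries, so 6 of the 9 libraries of the study were compared. Of 55851 genes in the table, the 17716 whose mean over the 9 libraries was at least 0.2 FPKM were tested. FPKM is the number of fragments on a gene scaled by the length of the gene and the size of the library. All mice were female, on the C57BL/6J background, and the time label was 7 weeks for all. The libraries were made with the Illumina TruSeq RNA kit from the RNA of total lung cells extracted with TRIzol. The remaining 3 libraries, of ovalbumin-challenged wild-type mice (WT OVA), are given beside the others as values. They were also part of the same fit, so their spread entered every p-value. No saline-treated knockout group was among the samples, so the effects of the missing gene and of the challenge cannot be told apart here. The labels do not say how the DJ-1 allele was made or whether a library is 1 mouse or a pool, and they name no batch, so p-values measure only the spread between these libraries.

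DJ-1, encoded by Park7, is a small redox-sensitive protein that protects cells against oxidative damage, and its loss causes an inherited form of Parkinson disease. Inhaled ovalbumin in a sensitised mouse is a standard model of allergic asthma: damaged epithelium releases alarm cytokines such as interleukin-33, innate lymphoid and T helper cells answer with interleukin-4, interleukin-5 and interleukin-13, and the airway makes mucus. In the same setting, macrophages take on the alternatively activated state marked by arginase and chitinase-like proteins, and eosinophils enter the tissue.

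Values are listed in the library order WT PBS 1, 2 and 3, WT OVA 5, 6 and 9 and DJ1_KO_OVA_263, DJ1_KO_OVA_266 and DJ1_KO_OVA_267. Fold changes and log2 differences are DJ-1 KO OVA against WT PBS on the scale of log2(FPKM + 0.5), which understates the change of genes at low level, and adjusted p-values are from limma with Benjamini-Hochberg adjustment over the 17716 genes. A gene is called higher or lower where its adjusted p is below 0.05.

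Park7 (ENSMUSG00000028964, chromosome 4, 150897133 to 150914437, GRCm38) was at 49.6, 53.8 and 36.7 FPKM in WT PBS, at 57.9, 53.1 and 60.5 FPKM in WT OVA and at 3.96, 7.29 and 3.98 FPKM in DJ-1 KO OVA. It was 8.66-fold lower in the knockout libraries (adjusted p = 0.000268), and every library matched its genotype label. The defining genes of lung were present in all 6 libraries: surfactant protein C (Sftpc) at 5089 to 39150 FPKM, the club cell secretoglobin Scgb1a1 at 20560 to 58510 FPKM, Ager at 61.4 to 356 FPKM, the endothelial gene Cdh5 at 1.61 to 21 FPKM and the leukocyte gene Ptprc at 19.1 to 42.2 FPKM. Nnt, which is partly deleted in C57BL/6J, lay between 0.0148 and 0.101 FPKM in all 9 libraries.

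Libraries held 20812192 to 29080130 reads on genes, and 12636 to 12983 genes reached 1 FPKM in each. DJ1_KO_OVA_263 stood apart. Its summed level over 12 genes of immature thymocytes, a list chosen after their values were seen, was 788.6 FPKM against 46.71 to 69.08 FPKM in the other 8 libraries, and each of the 12 genes was highest in it. Rag1, which cuts T cell receptor genes during thymic development, was at 79.3 FPKM in that library and at 0.0371 to 0.863 FPKM in the others. Over all tested genes, the median absolute log2 difference was 0.254 to 0.376 between pairs of WT PBS libraries, 0.284 to 0.489 between pairs of DJ-1 KO OVA libraries, with the highest for DJ1_KO_OVA_263 against DJ1_KO_OVA_266, and 0.277 to 0.565 between a library of one group and one of the other. The medians of pairs within the knockout group therefore overlapped those of pairs between the groups.

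Of the 17716 genes, 721 were called higher in DJ-1 KO OVA (4.07%) and 792 lower (4.47%), and 4674 had an unadjusted p below 0.05. The 3 libraries of one group lay entirely above those of the other for 2242 genes in the direction higher (12.7%) and 2291 genes in the direction lower (12.9%), and this held for 1512 of the 1513 called genes, the exception being Ccl2. The median log2 difference was 1.25 over the genes called higher and -1.26 over those called lower. At the far end, the sides were unequal: 20 genes called higher and 2 called lower had changed by at least 16-fold. The share of calls that were higher was 47.7%, and it was 69.1% after each library was rescaled to an equal FPKM sum, which moved the median of all genes up by 0.238 on the log2 scale. The counts rested on single libraries: 197 higher and 239 lower were called without WT PBS 1, 226 and 306 without WT PBS 2, 437 and 556 without WT PBS 3, 770 and 514 without DJ1_KO_OVA_263, 1902 and 1995 without DJ1_KO_OVA_266, and 257 and 229 without DJ1_KO_OVA_267.

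**Figure D1:**
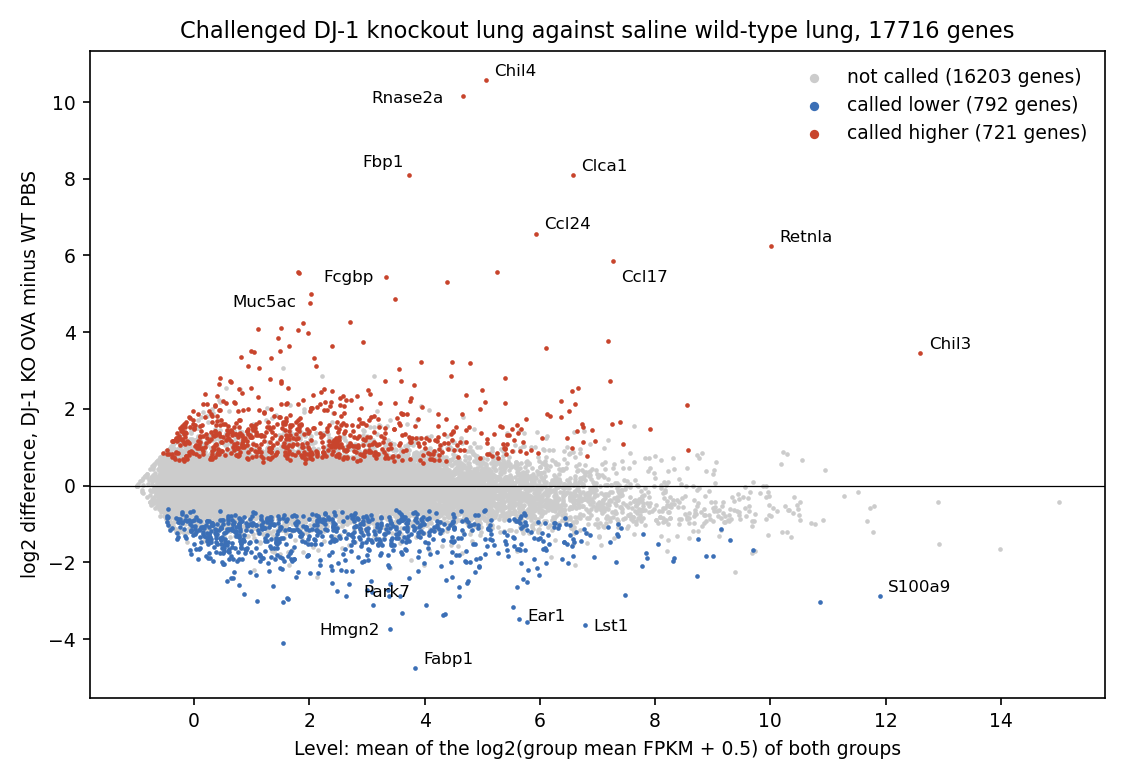
Each point is 1 of 17716 genes, placed by its level (x axis, mean of the log2 group means of FPKM + 0.5) and its log2 difference, DJ-1 KO OVA minus WT PBS (y axis); red points were called higher (721), blue points lower (792) and grey points were not called. The named genes at the top, from Chil4 at 10.57 down to Muc5ac at 4.99, reach farther from 0 than the lowest, Fabp1 at -4.77.

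The type 2 cytokines and their regulators were higher in the challenged knockout: 8 of 14 measured members rose and none fell, against 4.07% and 4.47% of all genes. Their median log2 difference was 1.36 against about 0 over all tested genes. Il13, the cytokine that drives mucus production, was at 0.466, 0.404 and 0.243 FPKM in WT PBS, at 2.81, 0.761 and 1.94 FPKM in WT OVA and at 6.78, 11.7 and 13.3 FPKM in DJ-1 KO OVA, a 12.4-fold rise (log2 difference 3.63, SE 0.35, adjusted p = 0.000576). All 3 knockout libraries lay above all 6 wild-type libraries. Il33, the epithelial alarm cytokine, was at 26.9, 32.4 and 30.2 FPKM in WT PBS and at 34.3, 33.9 and 33.1 FPKM in WT OVA, and it reached 113, 88.4 and 57.7 FPKM in DJ-1 KO OVA, a 2.77-fold rise (SE 0.24 on the log2 scale, adjusted p = 0.0076). The 6 wild-type libraries lay within 26.9 to 34.3 FPKM, and the lowest knockout library was above all of them.

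Some receptors of the same cytokines rose and others were not called. Il1rl1, the interleukin-33 receptor, was at 0.964 to 1.55 FPKM in WT PBS, 1.41 to 2.78 FPKM in WT OVA and 4.39, 7.01 and 12.1 FPKM in DJ-1 KO OVA (4.71-fold, adjusted p = 0.00498). Il17rb, the interleukin-25 receptor, rose 2.94-fold (adjusted p = 0.00178). The type 2 lymphocyte transcription factor Gata3 rose 4.17-fold, from 1.26, 1.51 and 2 FPKM to 8.37, 5.1 and 12.4 FPKM (adjusted p = 0.0035). Il13ra2, a decoy receptor for interleukin-13, rose 2.91-fold from at most 0.0854 FPKM to 0.637, 1.73 and 1.09 FPKM (adjusted p = 0.00728). The signalling receptor Il13ra1 was not called, at 20.9 to 31.8 FPKM in WT PBS and 14.6 to 22 FPKM in DJ-1 KO OVA, and neither were Il4ra, Stat6, Crlf2 or Tslp. Il9 and Il25 were below the filter.

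Il4 and Il5, the cytokines of antibody class switching and of eosinophil growth, rose by less and with less margin. Il4 went from 0.267, 0.476 and 0.504 FPKM to 0.947, 2.66 and 2.5 FPKM (2.63-fold, adjusted p = 0.0314), and Il5 from 0.944, 2.22 and 0.529 FPKM to 2.78, 4.38 and 3.48 FPKM (2.51-fold, adjusted p = 0.0335). The call of Il4 was lost without WT PBS 1, 2 or 3 or DJ1_KO_OVA_267 (adjusted p 0.12, 0.087, 0.06 and 0.13), and that of Il5 without WT PBS 1, WT PBS 3 or DJ1_KO_OVA_267 (0.12, 0.08 and 0.11). Areg, the epidermal growth factor family member made by innate lymphoid cells, was not called, at 39.3, 25.5 and 36.2 FPKM against 52.9, 58 and 76.5 FPKM (adjusted p = 0.0511).

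Of the 21 measured genes of mucus and the interleukin-13 response of the airway epithelium, 16 rose and 1 fell, against 4.07% and 4.47% of all genes. Their median log2 difference was 1.65. Clca1, which goblet cells secrete, was measured at 1.5, 12.9 and 3.82 FPKM in WT PBS, at 543, 56.4 and 487 FPKM in WT OVA and at 1772, 901 and 1472 FPKM in DJ-1 KO OVA, a 273-fold rise (SE 0.86 on the log2 scale, adjusted p = 0.000777). Muc5ac, the inducible gel-forming mucin, was at 0.257, 0.154 and 0.215 FPKM in WT PBS, 4.46, 0.556 and 3.85 FPKM in WT OVA and 27, 13.6 and 29.2 FPKM in DJ-1 KO OVA (31.9-fold, adjusted p = 0.000645). For both genes the 3 knockout libraries were the highest of all 9 and WT OVA 6 was the lowest of the challenged libraries. Muc5b, the mucin that healthy airways already make, rose 4.9-fold from 3.94 to 6.55 FPKM in WT PBS to 17.3 to 38 FPKM (adjusted p = 0.00328).

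Other goblet cell genes moved with the mucins. Fcgbp, a mucus-binding protein, rose 43-fold, from 0.874, 1.21 and 1 FPKM to 71.3, 56 and 68.4 FPKM (adjusted p = 0.000412). The anion exchanger Slc26a4 rose 29.2-fold, from 1.02, 1.38 and 2.42 FPKM to 62.9, 60.1 and 53.5 FPKM (adjusted p = 0.000576). The knockout libraries lay close together for both, and WT OVA was at 3.13 to 19.6 FPKM for Fcgbp and 1.32 to 7.94 FPKM for Slc26a4. Pigr, which carries antibodies across the epithelium, rose 5.61-fold (adjusted p = 0.000412). The secreted lectin Itln1 rose 14.3-fold (adjusted p = 0.00195). The goblet cell transcription factors Spdef and Foxa3 rose by less, 2.75-fold (adjusted p = 0.00623) and 2.96-fold (adjusted p = 0.00417). Agr2, which folds mucins in the endoplasmic reticulum, was at 3.37, 5.25 and 2.32 FPKM in WT PBS, 42.3, 9.74 and 45.2 FPKM in WT OVA and 34.5, 38.2 and 25.6 FPKM in DJ-1 KO OVA (8.26-fold, adjusted p = 0.00769), so that both challenged groups overlapped. The member that fell was Bpifa1, an antimicrobial protein of the upper airway, at 1082, 1076 and 925 FPKM in WT PBS and 374, 352 and 434 FPKM in DJ-1 KO OVA (2.66-fold, adjusted p = 0.0409). The list held 13 to 15 members called higher whichever library was left out, while Bpifa1 lost its call without WT PBS 1, 2 or 3, DJ1_KO_OVA_263 or DJ1_KO_OVA_267 (adjusted p 0.14, 0.12, 0.074, 0.075 and 0.11).

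**Figure D2:**
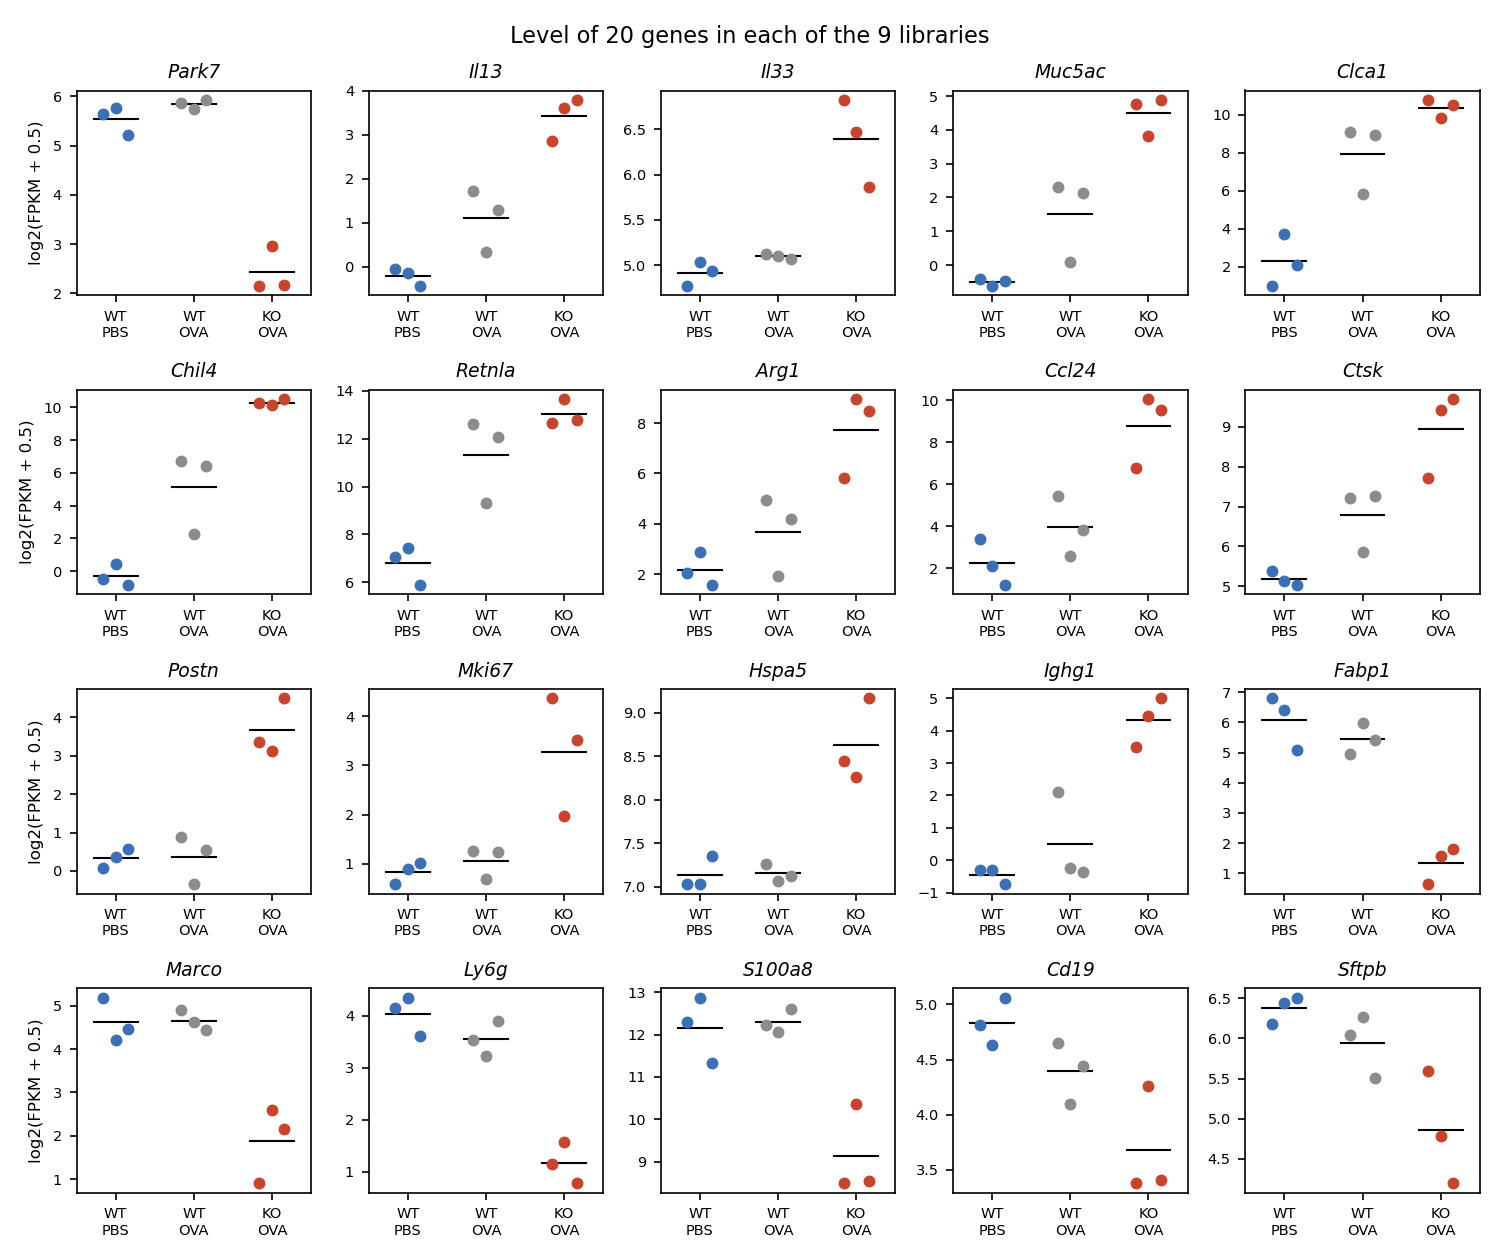
Each panel shows 1 gene, with the level as log2(FPKM + 0.5) on the y axis, a point for each of the 3 libraries of WT PBS, WT OVA and DJ-1 KO OVA and a line at the group mean. The 3 DJ-1 KO OVA points lie above the WT PBS points for Il13, Il33, Muc5ac, Clca1 and Chil4 and below them for Park7, Fabp1, Marco and Ly6g.

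Alternative macrophage activation was the list with the highest median, 2.18 on the log2 scale. Of its 19 measured members, 13 were higher and none lower, against 4.07% and 4.47% of all genes. The largest rise of all named genes was that of Chil4, a chitinase-like protein, at 0.233, 0.882 and 0.0577 FPKM in WT PBS, 105, 4.25 and 84.8 FPKM in WT OVA and 1213, 1121 and 1461 FPKM in DJ-1 KO OVA (log2 difference 10.57, SE 0.94, adjusted p = 0.000412). Retnla, a secreted protein of macrophages and airway cells, was at 132, 174 and 58.7 FPKM in WT PBS, 6317, 630 and 4279 FPKM in WT OVA and 6456, 12910 and 7042 FPKM in DJ-1 KO OVA (75.5-fold, adjusted p = 0.00194). Chil4 was higher in every knockout library than in any WT OVA library by a wide margin, whereas for Retnla WT OVA 5 came close to DJ1_KO_OVA_263. Chil4 and Chil3 are near-identical copies, so reads could be split between them. Chil3 rose 11-fold, from 1998, 2036 and 1374 FPKM to 10250, 23240 and 31290 FPKM (adjusted p = 0.0178), a call lost without WT PBS 1, 2 or 3 or DJ1_KO_OVA_267 (adjusted p 0.066, 0.066, 0.058 and 0.079).

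In a second set of genes, DJ1_KO_OVA_263 was lower than the other knockout libraries by several-fold. Arg1, the arginase that defines the state, was at 3.68, 6.91 and 2.47 FPKM in WT PBS, 30.6, 3.33 and 17.7 FPKM in WT OVA and 55.3, 496 and 355 FPKM in DJ-1 KO OVA (47.5-fold, adjusted p = 0.00621). The chemokine Ccl24, which attracts eosinophils, was at 10.1, 3.72 and 1.78 FPKM, then 43.2, 5.43 and 13.7 FPKM, then 108, 1073 and 759 FPKM (95.1-fold, adjusted p = 0.00384). Ccl17, which attracts T helper cells, was at 17, 23.9 and 9.3 FPKM, then 644, 52.3 and 392 FPKM, then 218, 2268 and 1666 FPKM (58.2-fold, adjusted p = 0.00828). Rnase2a, a ribonuclease of a multicopy family, went from 0.0678, 0.212 and 0.141 FPKM to 192, 1368 and 1452 FPKM (log2 difference 10.15, SE 1.35, adjusted p = 0.003). It was named for the size of its rise and was in neither this list nor the eosinophil list. The gluconeogenic enzyme Fbp1 went from 0.0825, 0.401 and 0.0956 FPKM to 54, 273 and 425 FPKM (273-fold, adjusted p = 0.00498). For Ccl17, WT OVA 5 and 9 lay above DJ1_KO_OVA_263. Mrc1, the mannose receptor, rose 4.41-fold (adjusted p = 0.00321) and Irf4, a transcription factor of the state, 5.21-fold (adjusted p = 0.00498). The count of 13 was 7 without WT PBS 1 or 2 and 8 without WT PBS 3 or DJ1_KO_OVA_267.

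The promoters of Retnla and Ccl17 are shown because both genes are among the largest rises and both windows hold TTC and GAA set apart by any 4 bases, the spacing favoured by STAT6, which carries the interleukin-4 and interleukin-13 signal. The windows run from 250 bases before to 50 after the RefSeq start on GRCm38.p6, Retnla at chr16:48842359-48842658 on the plus strand and Ccl17 at chr8:94810203-94810502 on the plus strand, with the match in capitals. The letters read the same on both strands.
Retnla: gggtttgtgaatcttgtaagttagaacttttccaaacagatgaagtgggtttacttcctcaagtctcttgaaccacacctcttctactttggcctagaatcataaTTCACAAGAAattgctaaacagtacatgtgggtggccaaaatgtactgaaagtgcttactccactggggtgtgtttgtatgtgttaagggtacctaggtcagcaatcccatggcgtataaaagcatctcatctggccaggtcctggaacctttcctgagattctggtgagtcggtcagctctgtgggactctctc
Ccl17: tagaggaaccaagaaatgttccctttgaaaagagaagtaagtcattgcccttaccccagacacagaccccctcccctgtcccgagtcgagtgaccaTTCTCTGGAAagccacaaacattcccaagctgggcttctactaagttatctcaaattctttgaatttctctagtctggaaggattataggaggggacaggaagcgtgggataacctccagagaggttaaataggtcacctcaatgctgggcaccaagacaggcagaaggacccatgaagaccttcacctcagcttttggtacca
Of the 29 genes called higher in the mucus and alternative macrophage lists, 21 had a promoter in the RefSeq table, and 6 of these held the letters (28.6%), against 1888 of all 27025 promoters (6.99%). The other four were those of Tfec, Cd209e, Capn9 and Pdcd1lg2. Uncalled members of these lists were not counted apart, so the share cannot be tied to the rise. A match is a description of the sequence and not a measured binding site.

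Genes of macrophage fusion and lipid handling were partly higher, 5 of 16 measured members rising and 1 falling, against 4.07% and 4.47% of all genes. Their median log2 difference was 0.92. The protease Ctsk was at 41.6, 34.7 and 32.3 FPKM in WT PBS, 147, 58.1 and 154 FPKM in WT OVA and 211, 682 and 830 FPKM in DJ-1 KO OVA (13.5-fold, adjusted p = 0.00328). The elastase Mmp12 rose 39.6-fold (adjusted p = 0.00852). Ocstamp and Dcstamp, membrane proteins required for fusion of macrophages into giant cells, rose 18.7-fold (adjusted p = 0.00421) and 10.1-fold (adjusted p = 0.0143), the call of Dcstamp being lost without WT PBS 1 or 2 (adjusted p 0.053 and 0.062). Apoe, the lipid carrier, fell from 1095, 749 and 1005 FPKM to 164, 374 and 289 FPKM (3.59-fold, adjusted p = 0.012), a call lost without WT PBS 1 (adjusted p = 0.06). Without DJ1_KO_OVA_263, the lowest knockout library for Ctsk, 12 members were called higher.

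The genes of resident alveolar macrophages moved in both directions, 4 of 13 higher and 4 lower, against 4.07% and 4.47% of all genes. Their median log2 difference was 0.07. Fabp1, a fatty acid binding protein, was at 111, 83.9 and 33.5 FPKM in WT PBS, 30.8, 62.4 and 42.5 FPKM in WT OVA and 1.05, 2.45 and 2.96 FPKM in DJ-1 KO OVA (27.2-fold lower, adjusted p = 0.000576), the largest fall among the named genes. The scavenger receptor Marco went from 35.9, 18 and 21.4 FPKM to 1.37, 5.57 and 3.97 FPKM (6.62-fold lower, adjusted p = 0.00471), with WT OVA at 21.3 to 29.2 FPKM. The ribonuclease Ear1, another member of a multicopy family, fell 11.1-fold (adjusted p = 0.000582) and the lipid droplet gene Cidec 3.32-fold (adjusted p = 0.00845). In these 4 genes the wild-type libraries, challenged or not, lay above all knockout libraries. Chil3, Mrc1, the integrin Itgax (3.48-fold) and the surface protein Plet1 (2.66-fold) made up the 4 that rose. The 4 falls were called whichever library was left out, while of the 4 rises 1 was called without WT PBS 1, 2 or 3 or DJ1_KO_OVA_267. Cidec was also in the list of adipocyte genes, where 2 of 4 measured members fell, against 4.47% of all genes. These were Cidec and Cfd (adjusted p = 0.0203), and the median log2 difference of that list was -1.2. In whole tissue, fewer cells of a type and less RNA per cell cannot be told apart.

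Of 15 monocyte and interstitial macrophage genes, 4 fell and none rose (median log2 difference -0.87), against 4.47% and 4.07% of all genes. Cx3cr1, the fractalkine receptor of patrolling monocytes, was at 14.5, 9.49 and 23.7 FPKM in WT PBS, 6.75, 6.01 and 9.35 FPKM in WT OVA and 3.36, 3.37 and 3.7 FPKM in DJ-1 KO OVA (3.87-fold lower, adjusted p = 0.00531), and Ly6c2, of inflammatory monocytes, fell 2.97-fold (adjusted p = 0.00747). Ace and Treml4 were the other two, and 2 of the 4 were called without WT PBS 1, WT PBS 3 or DJ1_KO_OVA_267. Among the largest falls outside the lists were further genes of nonclassical monocytes and granulocytes. Lst1 went from 330, 388 and 278 FPKM to 10.4, 74.3 and 22.9 FPKM (12.4-fold, adjusted p = 0.00612), Ifitm6 from 159, 203 and 148 FPKM to 8.31, 34.4 and 9.12 FPKM (11.7-fold, adjusted p = 0.0026), and the adhesion receptor Adgre4 from 47, 52.4 and 67.3 FPKM to 1.23, 12.9 and 6.51 FPKM (10.2-fold, adjusted p = 0.0106). DJ1_KO_OVA_266 was the highest knockout library for all 3.

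Neutrophil genes were lower: 11 of 16 fell and none rose, against 4.47% and 4.07% of all genes. Their median log2 difference was -1.77. Ly6g, the surface marker of mouse neutrophils, was at 17.1, 19.9 and 11.7 FPKM in WT PBS, 11.1, 8.85 and 14.5 FPKM in WT OVA and 1.73, 2.47 and 1.22 FPKM in DJ-1 KO OVA (7.29-fold lower, adjusted p = 0.000576). Mmp9, a gelatinase, went from 126, 75.6 and 102 FPKM to 18.4, 33.9 and 22 FPKM (4.08-fold lower, adjusted p = 0.0032). The granule peptides Camp and Ngp fell 5.62-fold (adjusted p = 0.00382) and 4.03-fold (adjusted p = 0.00384). In these 4 genes every wild-type library was above every knockout library. The calgranulin S100a8 was at 5003, 7517 and 2584 FPKM in WT PBS and 358, 1325 and 372 FPKM in DJ-1 KO OVA (8.2-fold lower, adjusted p = 0.0133), a call lost without WT PBS 1, WT PBS 2 or DJ1_KO_OVA_267 (adjusted p 0.057, 0.061 and 0.067). The protease inhibitor genes Stfa2l1 and Cstdc4 fell 8.92-fold (adjusted p = 0.00178) and 8.59-fold (adjusted p = 0.00483). Without WT PBS 1, WT PBS 2 or DJ1_KO_OVA_267, 7 of the 11 were called.

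Of the 9 measured eosinophil genes, 1 was called, and it was lower, against 4.47% of all genes called lower. This was Ear1, which alveolar macrophages also express. Without DJ1_KO_OVA_263, 3 were called higher (Prg2, Ear6 and Alox15), and after rescaling to equal sums 2 were (Prg2 and Alox15). The ribonuclease Rnase2a, whose rise is given above, was not a member of this list and is not in these counts. Prg2, the major basic protein of eosinophil granules, was at 0.168, 0.349 and 0.349 FPKM in WT PBS, 4.79, 0.521 and 2.18 FPKM in WT OVA and 0.693, 15.1 and 15 FPKM in DJ-1 KO OVA, and was not called (log2 difference 3.07, SE 0.89, adjusted p = 0.0591, or 0.0026 without DJ1_KO_OVA_263). DJ1_KO_OVA_266 and DJ1_KO_OVA_267 were far above the other libraries, and DJ1_KO_OVA_263 was below WT OVA 5 and 9. Epx, the eosinophil peroxidase, was below the filter, at 0 FPKM in all WT PBS libraries and at 0, 0 and 0.0299 FPKM in DJ-1 KO OVA. Siglecf, carried by eosinophils and alveolar macrophages alike, was at 19.2, 12 and 13.5 FPKM in WT PBS and 6.07, 6.47 and 16.4 FPKM in DJ-1 KO OVA (adjusted p = 0.214). The eotaxin receptor Ccr3 was at 0.239 to 0.685 FPKM against 0.55 to 2.45 FPKM (adjusted p = 0.183). None of the 12 mast cell and basophil genes was called by limma or limma-voom, and 3 had an unadjusted p below 0.05. Without DJ1_KO_OVA_263, the mast cell proteases Mcpt1 and Mcpt2 were called higher.

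Chemokines rose in part, 8 of 30 measured members higher and none lower, against 4.07% and 4.47% of all genes. Their median log2 difference was 0.87. Beside Ccl24 and Ccl17, the eotaxin Ccl11 went from 8.31, 8.96 and 5.98 FPKM in WT PBS and 18.7, 10.4 and 16.4 FPKM in WT OVA to 53.6, 61.9 and 59.3 FPKM in DJ-1 KO OVA (7.2-fold, SE 0.24 on the log2 scale, adjusted p = 0.000374). Its 3 knockout values lay within a narrow range, unlike those of Ccl24. The neutrophil-attracting Cxcl3 rose 6.19-fold, from 5.59, 4.3 and 4.63 FPKM to 15.4, 40.5 and 54.1 FPKM (adjusted p = 0.00472). Cxcl1 rose 3.17-fold (adjusted p = 0.00884). Ccl8 was at 20.1, 30.5 and 5.09 FPKM in WT PBS and 60, 439 and 240 FPKM in DJ-1 KO OVA (12.1-fold, adjusted p = 0.0308), with WT OVA at 412, 90.6 and 487 FPKM. Its call was lost without WT PBS 1, 2 or 3 or DJ1_KO_OVA_267 (adjusted p 0.075, 0.062, 0.082 and 0.11). Without DJ1_KO_OVA_263, 13 chemokines were called higher, and without DJ1_KO_OVA_267, 5.

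T cell genes were higher for 8 of 23 measured members and lower for none (median log2 difference 1.10), against 4.07% and 4.47% of all genes. Il2ra, the high-affinity interleukin-2 receptor of activated and regulatory T cells, was at 1.1, 1.3 and 0.946 FPKM in WT PBS, 2.22, 1.33 and 2.15 FPKM in WT OVA and 5.12, 3.86 and 6.29 FPKM in DJ-1 KO OVA (3.42-fold, adjusted p = 0.00266), and the inhibitory receptor Ctla4 went from 2.05, 3.35 and 2.16 FPKM to 10.4, 12.5 and 19 FPKM (4.72-fold, adjusted p = 0.00723). For both, DJ1_KO_OVA_267 was the highest library. Cd4 was at 7.12, 6.03 and 7.7 FPKM in WT PBS and 53.2, 11.8 and 21.9 FPKM in DJ-1 KO OVA (3.31-fold, adjusted p = 0.0371), highest in the library with the thymocyte genes, and its call was lost without WT PBS 1, 2 or 3 or DJ1_KO_OVA_267 (adjusted p 0.11, 0.12, 0.07 and 0.1). The part of those thymocyte genes in the result was not tested. Of the 8 calls, 5 were made without DJ1_KO_OVA_263, 2 without WT PBS 1 or DJ1_KO_OVA_267, 3 without WT PBS 2 and 4 without WT PBS 3. None of the 12 genes of natural killer and cytotoxic cells was called by limma or limma-voom, and 3 had an unadjusted p below 0.05 (median log2 difference -0.45), the granzyme Gzma being at 256, 494 and 235 FPKM against 202, 154 and 114 FPKM (adjusted p = 0.12).

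B cell genes were lower for 6 of 13 members and higher for none (median log2 difference -0.83), against 4.47% and 4.07% of all genes. The number called was, however, 1 without WT PBS 1, 2 or 3 or DJ1_KO_OVA_263, and 0 without DJ1_KO_OVA_267. The kinase Blk was at 10.8, 12.2 and 14.7 FPKM in WT PBS, 11.1, 8.31 and 11.5 FPKM in WT OVA and 4.33, 6.94 and 4.59 FPKM in DJ-1 KO OVA (2.29-fold lower, adjusted p = 0.0129, or 0.058 without DJ1_KO_OVA_267). Of 12 immunoglobulin constant region genes tested, Ighg1 rose and Ighd and Iglc3 fell. Of the 17 measured members of the list of plasma cells and constant regions, 2 rose (Ighg1 and Irf4) and 2 fell (Ighd and the proteoglycan Sdc1). The shares of all genes were 4.07% and 4.47%. Log2 differences were positive for 13 of the 17 and negative for 4, with a median of 0.40. The count of falls was 1 whichever library other than DJ1_KO_OVA_266 was left out. Ighg1, the type 2 associated IgG isotype, was at 0.307, 0.32 and 0.1 FPKM in WT PBS, 3.8, 0.354 and 0.275 FPKM in WT OVA and 10.8, 21.4 and 31.4 FPKM in DJ-1 KO OVA (27.1-fold, adjusted p = 0.00194), all knockout libraries lying above all wild-type libraries. Ighd, of naive B cells, fell from 53.5, 57 and 65.3 FPKM to 20.3, 25.4 and 19 FPKM (2.69-fold, adjusted p = 0.00314).

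**Figure D3:**
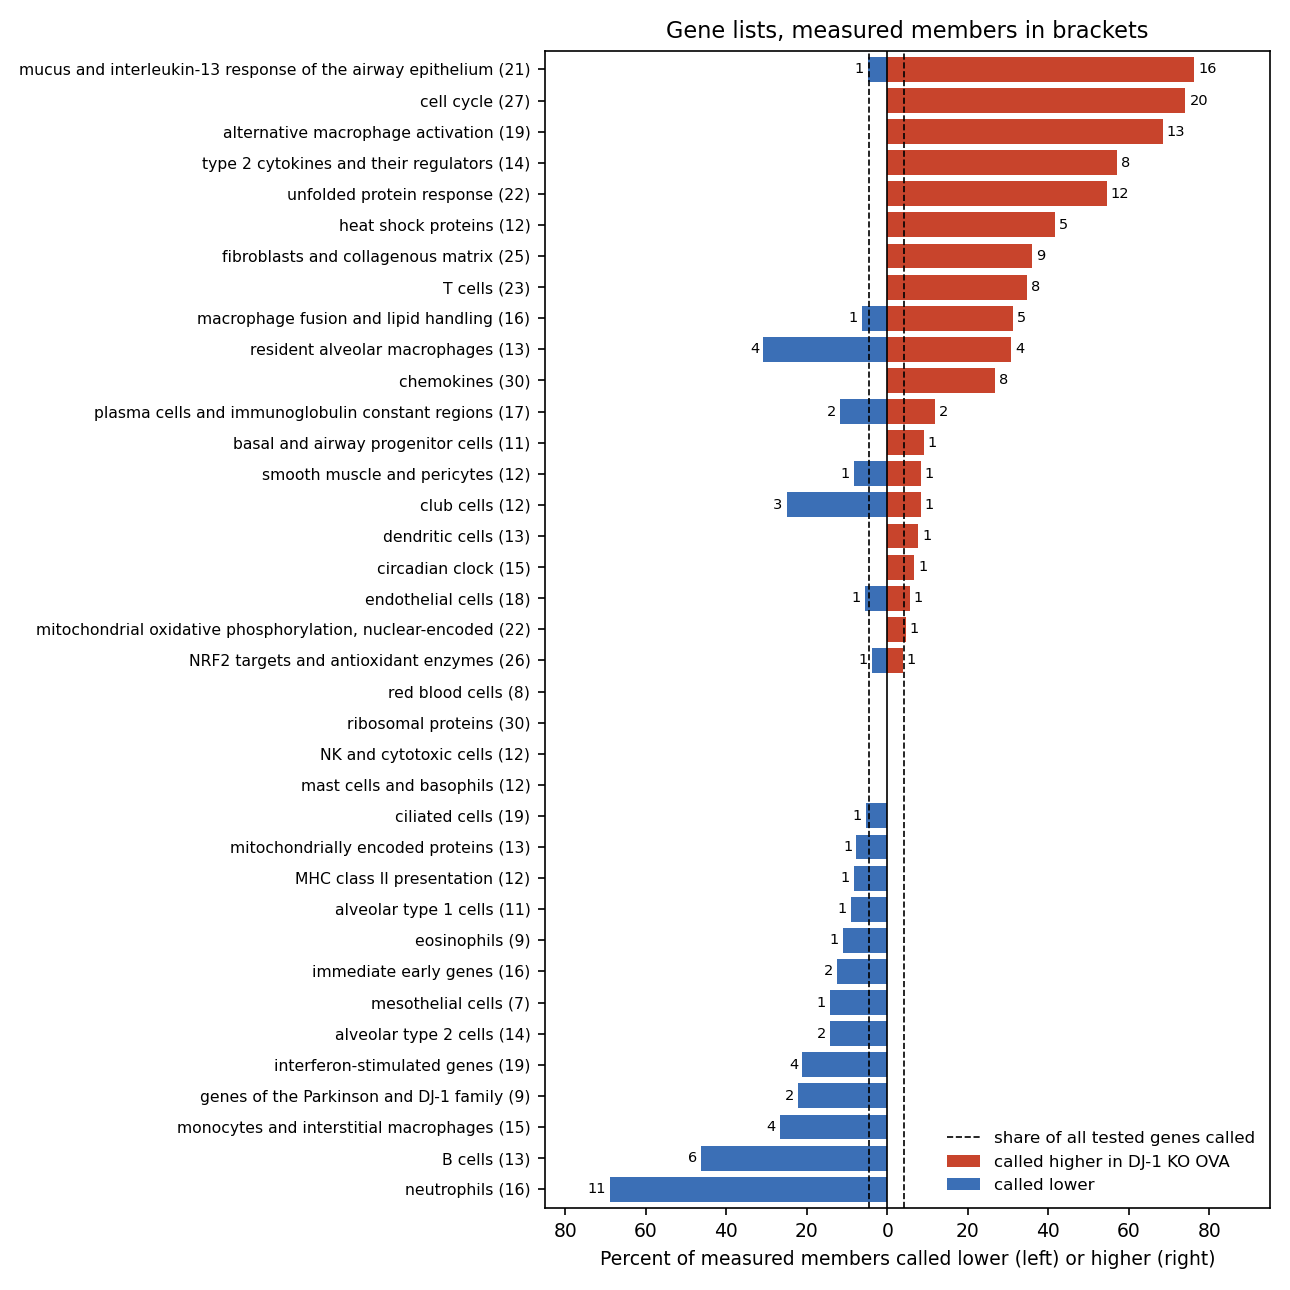
Bars give the percent of the measured members of each gene list called higher (red, right) or lower (blue, left) in DJ-1 KO OVA than in WT PBS, with the number called beside the bar and the number measured in brackets; dashed lines mark the 4.07% and 4.47% of all tested genes. Mucus (16 of 21), cell cycle (20 of 27) and alternative macrophage activation (13 of 19) lead on the right and neutrophils (11 of 16) on the left.

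Genes of the cell cycle were higher for 20 of 27 members and lower for none, against 4.07% and 4.47% of all genes. Their median log2 difference was 1.35. Plk1, a kinase of mitotic entry, was at 1.94, 1.2 and 1.38 FPKM in WT PBS, 3.1, 1.05 and 1.76 FPKM in WT OVA and 12.2, 5.2 and 6.71 FPKM in DJ-1 KO OVA (4.07-fold, adjusted p = 0.00922). Cdc20, an activator of the anaphase-promoting complex, went from 5.74, 5.95 and 4.89 FPKM to 22.7, 13.4 and 11.1 FPKM (2.58-fold, adjusted p = 0.012). The cyclin Ccne1 rose 2.52-fold (adjusted p = 0.0073). The proliferation marker Mki67 was at 1, 1.36 and 1.51 FPKM in WT PBS and 20.1, 3.4 and 10.9 FPKM in DJ-1 KO OVA (5.47-fold, adjusted p = 0.0151), a call lost without WT PBS 1, WT PBS 2 or DJ1_KO_OVA_267 (adjusted p 0.062, 0.06 and 0.063). DJ1_KO_OVA_263, which held the thymocyte genes, was the highest library for Plk1, Cdc20, Ccne1 and Mki67, and 16 of the 20 were called without it. The count was 4 without WT PBS 1, 5 without WT PBS 2, 12 without WT PBS 3 and 11 without DJ1_KO_OVA_267.

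The promoters of Plk1 and Cdc20 are shown because both hold CCAAT, the letters read by NF-Y, followed by TTTGAA, the core of the element through which cell cycle genes are repressed outside division. The windows are again 250 bases before to 50 after the RefSeq start on GRCm38.p6, Plk1 at chr7:122159185-122159484 on the plus strand and Cdc20 at chr4:118437294-118437593 on the minus strand, with matches on either strand in capitals.
Plk1: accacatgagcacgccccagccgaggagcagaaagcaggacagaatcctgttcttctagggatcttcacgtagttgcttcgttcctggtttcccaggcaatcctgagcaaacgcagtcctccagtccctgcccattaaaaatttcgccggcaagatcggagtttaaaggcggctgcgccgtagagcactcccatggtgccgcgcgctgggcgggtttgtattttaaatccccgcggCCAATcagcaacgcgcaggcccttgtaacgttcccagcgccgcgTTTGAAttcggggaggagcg
Cdc20: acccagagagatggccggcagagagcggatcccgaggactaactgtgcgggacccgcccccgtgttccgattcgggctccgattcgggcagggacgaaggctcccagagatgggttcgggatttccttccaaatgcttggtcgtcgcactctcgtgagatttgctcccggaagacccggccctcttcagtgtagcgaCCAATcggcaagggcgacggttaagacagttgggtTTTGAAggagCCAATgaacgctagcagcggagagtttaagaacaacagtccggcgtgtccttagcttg
Of the 20 genes called higher, 17 had a promoter in the RefSeq table. CCAAT on either strand stood in 15 of the 17 (88.2%), against 37.9% of all 27025 promoters, and TTTGAA on either strand in 10 of the 17 (58.8%), against 18.1%. The searched letters do not overlap each other. Uncalled members of the cell cycle list were not counted apart, so these shares cannot be tied to the rise. Here too, a match is a description of the sequence and not a measured binding site.

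Genes of fibroblasts and the collagenous matrix were higher for 9 of 25 members and lower for none, against 4.07% and 4.47% of all genes. Their median log2 difference was 0.81. Postn, an interleukin-13-responsive matrix protein, was at 0.554, 0.789 and 0.987 FPKM in WT PBS, 1.33, 0.286 and 0.97 FPKM in WT OVA and 9.74, 8.23 and 22.1 FPKM in DJ-1 KO OVA (10-fold, SE 0.39 on the log2 scale, adjusted p = 0.00144). The 6 wild-type libraries overlapped and the knockout libraries were far above them. Inhba, a subunit of activin, rose 16.7-fold, from 0.256 to 0.295 FPKM to 5.98, 10.3 and 29.6 FPKM (adjusted p = 0.00169). Fibronectin (Fn1) rose 5.84-fold, from 41, 25.5 and 55.7 FPKM to 152, 207 and 381 FPKM (adjusted p = 0.00634). The protease inhibitor Timp1 rose 6.94-fold (adjusted p = 0.00941). Among the collagens, Col3a1 rose 3.06-fold (adjusted p = 0.0201, but 0.082, 0.081 and 0.059 without WT PBS 1, WT PBS 2 and DJ1_KO_OVA_267). Col1a1 went from 83.6, 61.8 and 98.3 FPKM to 136, 143 and 291 FPKM (2.23-fold, adjusted p = 0.046), a call lost without WT PBS 1, 2 or 3 or DJ1_KO_OVA_267 (adjusted p 0.13, 0.15, 0.061 and 0.15). DJ1_KO_OVA_267 was the highest library for all of these but Timp1. The count was 4 without WT PBS 1, WT PBS 2 or DJ1_KO_OVA_267 and 15 without DJ1_KO_OVA_266.

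Endothelial genes had a median log2 difference of -1.15, yet of 18 members 1 was called lower and 1 higher, against 4.47% and 4.07% of all genes. Aplnr, the apelin receptor, was lower (adjusted p = 0.0404) and Flt1, a receptor of vascular endothelial growth factor, higher (adjusted p = 0.0429). By limma-voom, 5 were called lower and 1 higher. Flt1 lost its call whichever library other than DJ1_KO_OVA_263 was left out (adjusted p 0.052 to 0.15). Cldn5, a tight junction protein of endothelium, was at 49, 71.6 and 75.6 FPKM in WT PBS and at 4.6, 85.4 and 16.9 FPKM in DJ-1 KO OVA (adjusted p = 0.184). Egfl7 was at 14.2, 18.5 and 16.9 FPKM against 0.892, 15.1 and 2.02 FPKM (adjusted p = 0.0756). DJ1_KO_OVA_266 was like the wild-type libraries and the other two were low. Without DJ1_KO_OVA_266, 15 of the 18 were called lower, and with any of the other 5 libraries left out none was (adjusted p of Aplnr 0.064 to 0.15). The mean log2 level of the list was 2.75, 3.01 and 3.27 in WT PBS and 0.87, 3.07 and 1.85 in DJ-1 KO OVA.

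Alveolar epithelial genes had negative medians, and the number called varied with the method. Of 14 alveolar type 2 genes, 2 were lower (median log2 difference -0.72), and of 11 alveolar type 1 genes, 1 was (-0.90), against 4.47% of all genes. By limma-voom, 5 type 2 and 2 type 1 genes were called lower. With 1 library left out, the count was 0 to 4 for each list. An unadjusted p below 0.05 was found for 7 of the 14 and 6 of the 11. Napsa, a protease that processes surfactant, went from 216, 252 and 255 FPKM to 88.1, 128 and 55.5 FPKM (2.8-fold lower, adjusted p = 0.0164). It was not called without WT PBS 1, WT PBS 2 or DJ1_KO_OVA_267 (adjusted p 0.056, 0.064 and 0.062). Sftpb, surfactant protein B, was at 71.8, 86.3 and 90.6 FPKM in WT PBS and 47.7, 27.1 and 17.8 FPKM in DJ-1 KO OVA (2.87-fold lower, adjusted p = 0.0233), and lost its call after rescaling to equal sums (adjusted p = 0.09) and without WT PBS 1, 2 or 3 or DJ1_KO_OVA_267 (0.064, 0.081, 0.062 and 0.087). Sftpc, at 23120, 39150 and 22970 FPKM against 11270, 11650 and 5089 FPKM, was not called (adjusted p = 0.123), nor was Ager, the type 1 cell receptor (adjusted p = 0.0863). Aqp5, the type 1 cell water channel, went from 66.5, 73.1 and 67.9 FPKM to 27.4, 34.5 and 14.2 FPKM (2.86-fold lower, adjusted p = 0.0163), a call lost without WT PBS 1 or WT PBS 2 (adjusted p 0.06 and 0.065).

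Airway epithelial genes other than those of mucus differed by list, beside 4.07% of all genes called higher and 4.47% lower. Among 12 club cell genes, 1 rose and 3 fell, with a median log2 difference of -0.82. In this list, 7 had an unadjusted p below 0.05, and 6 were lower without overlap between the groups, against 12.9% of all genes. Of 19 ciliated cell genes, 1 fell (Tppp3, adjusted p = 0.0179, or 0.068, 0.076 and 0.079 without WT PBS 1, WT PBS 2 and DJ1_KO_OVA_267). Of 11 genes of basal and airway progenitor cells, 1 rose. Reg3g, a secreted antibacterial lectin, rose 3.82-fold, from 49, 50.7 and 38.2 FPKM in WT PBS and 154, 85.5 and 127 FPKM in WT OVA to 212, 165 and 155 FPKM in DJ-1 KO OVA (adjusted p = 0.00325). The xenobiotic enzyme Cyp2a5 was at 15.9, 14.5 and 12.2 FPKM, then 8.19, 10.1 and 6.21 FPKM, then 5.24, 2.57 and 3.67 FPKM (3.49-fold lower, adjusted p = 0.00421), so that its 3 groups did not overlap. Gsta3 and Scgb3a2 were the other falls, and 1 of the 3 was called without WT PBS 1, WT PBS 2, DJ1_KO_OVA_263 or DJ1_KO_OVA_267. Scgb1a1, the main club cell secretion, was at 58510, 40320 and 20560 FPKM in WT PBS and 23610, 32270 and 25640 FPKM in DJ-1 KO OVA, and was not called (adjusted p = 0.742). Sox2, a transcription factor of airway progenitors, was at 1.59, 1.66 and 1.72 FPKM against 3.77, 2.88 and 4.91 FPKM (1.98-fold higher, adjusted p = 0.0365). It lost its call whichever library other than DJ1_KO_OVA_266 was left out (adjusted p 0.071 to 0.14).

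**Figure D4:**
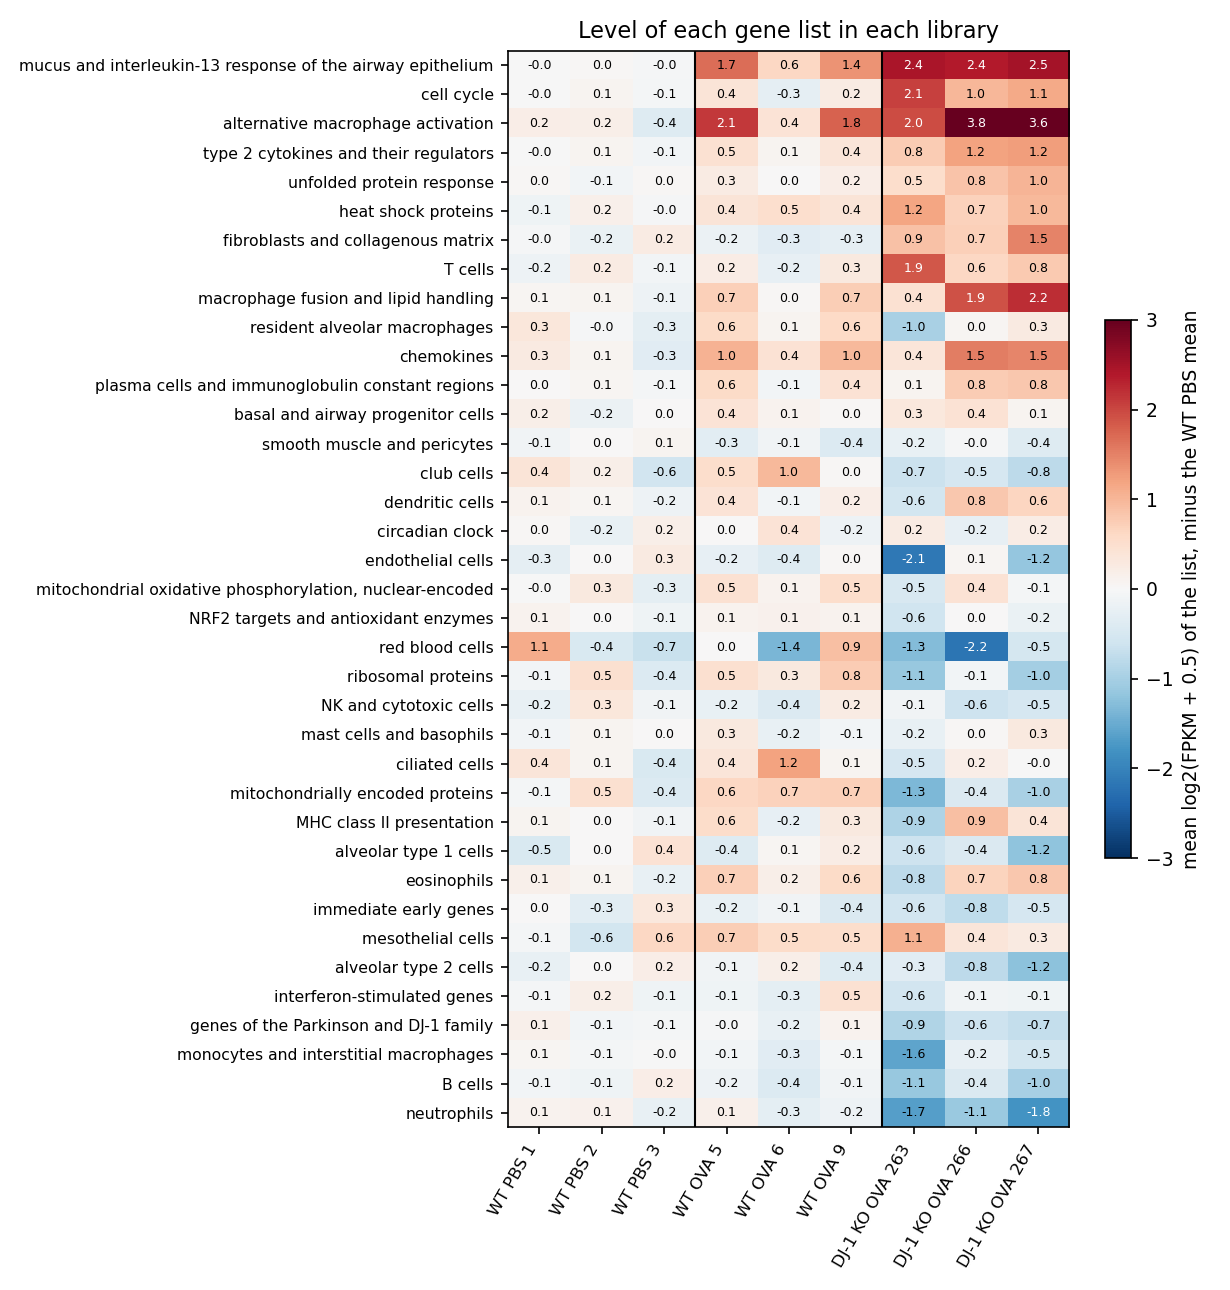
Cells give the mean log2(FPKM + 0.5) of each gene list (rows) in each of the 9 libraries (columns), minus the WT PBS mean, with red above and blue below. T cell and cell cycle genes are highest in DJ1_KO_OVA_263, alternative macrophage genes in DJ1_KO_OVA_266 and DJ1_KO_OVA_267, and endothelial genes are low in DJ1_KO_OVA_263 and DJ1_KO_OVA_267.

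The chaperones of the endoplasmic reticulum rose: 12 of 22 genes of the unfolded protein response were higher and none lower. The shares of all genes were 4.07% and 4.47%, and the median log2 difference of the list was 1.03. Pdia4, a disulfide isomerase, was at 39.6, 36.5 and 35 FPKM in WT PBS, 52.5, 35.6 and 55.4 FPKM in WT OVA and 87.8, 150 and 174 FPKM in DJ-1 KO OVA (3.54-fold, adjusted p = 0.00571), Dnajc3 rose 2.57-fold (adjusted p = 0.00436) and Creld2 3.35-fold (adjusted p = 0.00962). The master chaperone Hspa5 went from 130, 131 and 163 FPKM to 348, 306 and 573 FPKM (2.8-fold, adjusted p = 0.0112), a call lost without WT PBS 1 (adjusted p = 0.058). The transcription factors of the response were not called: Ddit3 was at 12, 18.8 and 11.7 FPKM against 13.5, 11.5 and 10.1 FPKM (adjusted p = 0.548) and Xbp1 at 97.4, 71.3 and 79.5 FPKM against 65.4, 116 and 78.5 FPKM (adjusted p = 0.943). The count was 4 without WT PBS 1, WT PBS 2 or DJ1_KO_OVA_267 and 7 without WT PBS 3.

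Of 12 heat shock genes, 5 were higher and none lower (median log2 difference 0.86), against 4.07% and 4.47% of all genes. Hsph1, a nucleotide exchange factor of heat shock protein 70, was at 2.76, 2.84 and 2.84 FPKM in WT PBS, 4.21, 5.5 and 4.64 FPKM in WT OVA and 22.9, 11.6 and 22.7 FPKM in DJ-1 KO OVA (5.64-fold, adjusted p = 0.000645). The mitochondrial chaperonin Hspd1 rose 2.5-fold, from 26.8, 27.9 and 25.4 FPKM to 82.3, 55.1 and 67.7 FPKM (adjusted p = 0.00476). DJ1_KO_OVA_263 was the highest for both, and the count was 2 without WT PBS 1 or DJ1_KO_OVA_267 and 8 without DJ1_KO_OVA_266.

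DJ-1 is known to stabilise NRF2, the transcription factor of antioxidant genes. Among 26 NRF2 targets and antioxidant enzymes, 1 rose and 1 fell, against 4.07% and 4.47% of all genes, and the median log2 difference was -0.25, or 0.05 after rescaling to equal sums. The count depended on DJ1_KO_OVA_266: without it, 2 were called higher and 7 lower, the falls including Gsr, the peroxidase Gpx4, the peroxiredoxin Prdx5 and the superoxide dismutase Sod1. With any 1 of the other 5 libraries left out, 1 was called lower. Glutathione reductase (Gsr) went from 149, 120 and 152 FPKM in WT PBS and 92.1, 96.2 and 110 FPKM in WT OVA to 39.5, 64.1 and 49.5 FPKM in DJ-1 KO OVA (2.78-fold lower, adjusted p = 0.00604). Gclc, the catalytic subunit of glutathione synthesis, went from 21.4, 16.6 and 26.3 FPKM to 71.1, 40.6 and 43.1 FPKM (2.34-fold higher, adjusted p = 0.0276), a call lost without WT PBS 1, WT PBS 2, DJ1_KO_OVA_263 or DJ1_KO_OVA_267 (adjusted p 0.09, 0.1, 0.061 and 0.067). The classical target Nqo1 was at 2.11, 3.17 and 1.8 FPKM against 1.08, 1.39 and 1.84 FPKM (adjusted p = 0.203), and heme oxygenase (Hmox1) at 124, 69.6 and 97 FPKM against 42.7, 110 and 114 FPKM (adjusted p = 0.738). Pink1, a mitochondrial kinase of the same Parkinson family, was at 63.3, 48.7 and 76.8 FPKM in WT PBS, 53, 54.9 and 53.8 FPKM in WT OVA and 26.4, 27.1 and 25.9 FPKM in DJ-1 KO OVA (2.31-fold lower, adjusted p = 0.00764), a call lost after rescaling to equal sums (adjusted p = 0.069). It lies 12.57 Mb from Park7.

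Of 22 nuclear-encoded genes of oxidative phosphorylation, 1 was called higher and none lower, against 4.07% and 4.47% of all genes. It was the succinate dehydrogenase subunit Sdha (1.78-fold higher, adjusted p = 0.0304), which lost its call without WT PBS 1, WT PBS 2 or DJ1_KO_OVA_267 (adjusted p 0.12, 0.09 and 0.12). Without DJ1_KO_OVA_266, 2 were called higher and 2 lower. Of the 13 proteins encoded by mitochondrial DNA, mt-Nd3, a subunit of complex I, fell from 63, 73.1 and 48.1 FPKM in WT PBS to 3.34, 10.3 and 4.35 FPKM in DJ-1 KO OVA (10.4-fold, adjusted p = 0.000606), and the glycine transfer RNA gene mt-Tg, a very short gene, from 15.8, 13.6 and 5.74 FPKM to 0, 0 and 0.601 FPKM (17.4-fold, adjusted p = 0.000576). The median over the 13 was -0.79 on the log2 scale, and 7 were called lower without DJ1_KO_OVA_266. None of 30 ribosomal protein genes was called by limma and 1 was, lower, by limma-voom, while 10 had an unadjusted p below 0.05. Without DJ1_KO_OVA_266, 15 were called lower. Their median log2 difference was -0.75, and the mean log2 level of that list was 9.26, 9.82 and 8.92 in WT PBS and 8.19, 9.26 and 8.31 in DJ-1 KO OVA.

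Hmgn2, a nucleosome-binding protein with many processed copies, had the third largest fall among named genes and the most uniform of the 3. It was at 38.8, 50.7 and 26.6 FPKM in WT PBS, 52.4, 35.9 and 47.5 FPKM in WT OVA and 2.81, 2.57 and 1.72 FPKM in DJ-1 KO OVA (13.4-fold, SE 0.27 on the log2 scale, adjusted p = 0.000151). Like Park7 it is on chromosome 4, 16.93 Mb away. Of the 366 tested genes within 20 Mb of Park7, 15.6% were called, 11 higher and 46 lower, against 7.7% of the 688 other genes of chromosome 4 and 8.41% of the 16661 genes of the other chromosomes. The share was 11.3% of the 141 genes within 5 Mb and 13.1% of the 199 within 10 Mb. The calls were more frequent before the gene than after it: 18.5% of 275 genes in the 20 Mb before Park7 were called, and 6.59% of 91 after it, where the chromosome ends. Without DJ1_KO_OVA_266 the shares were 25.7% within 20 Mb and 21.8% on other chromosomes, with WT PBS 1 left out 8.2% and 2.34%, and after rescaling to equal sums 10.9% and 7.82%.

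For several of these genes both wild-type groups overlapped and the knockout libraries lay outside them. Zfp984, a zinc finger gene, was at 6.99, 9.87 and 5.14 FPKM in WT PBS, 8, 7.55 and 9.59 FPKM in WT OVA and 1.49, 0.698 and 0.8 FPKM in DJ-1 KO OVA (5.21-fold lower, adjusted p = 0.00108). Zfp990, a related zinc finger gene, was at 0 FPKM in all 6 wild-type libraries and at 1.89, 1.95 and 2.49 FPKM in DJ-1 KO OVA, at least 57.6-fold higher against a floor of 3 reads per library (adjusted p = 0.000151). Both belong to a family of similar copies, so reads could be split between them. The transcription factor Hes2 fell 2.88-fold (adjusted p = 0.00137), the mitochondrial carrier Slc25a33 2.92-fold (adjusted p = 0.00192) and the ubiquitin ligase adaptor Fbxo44 3.15-fold (adjusted p = 0.00325), each with no overlap between the knockout and the 6 wild-type libraries.

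**Figure D5:**
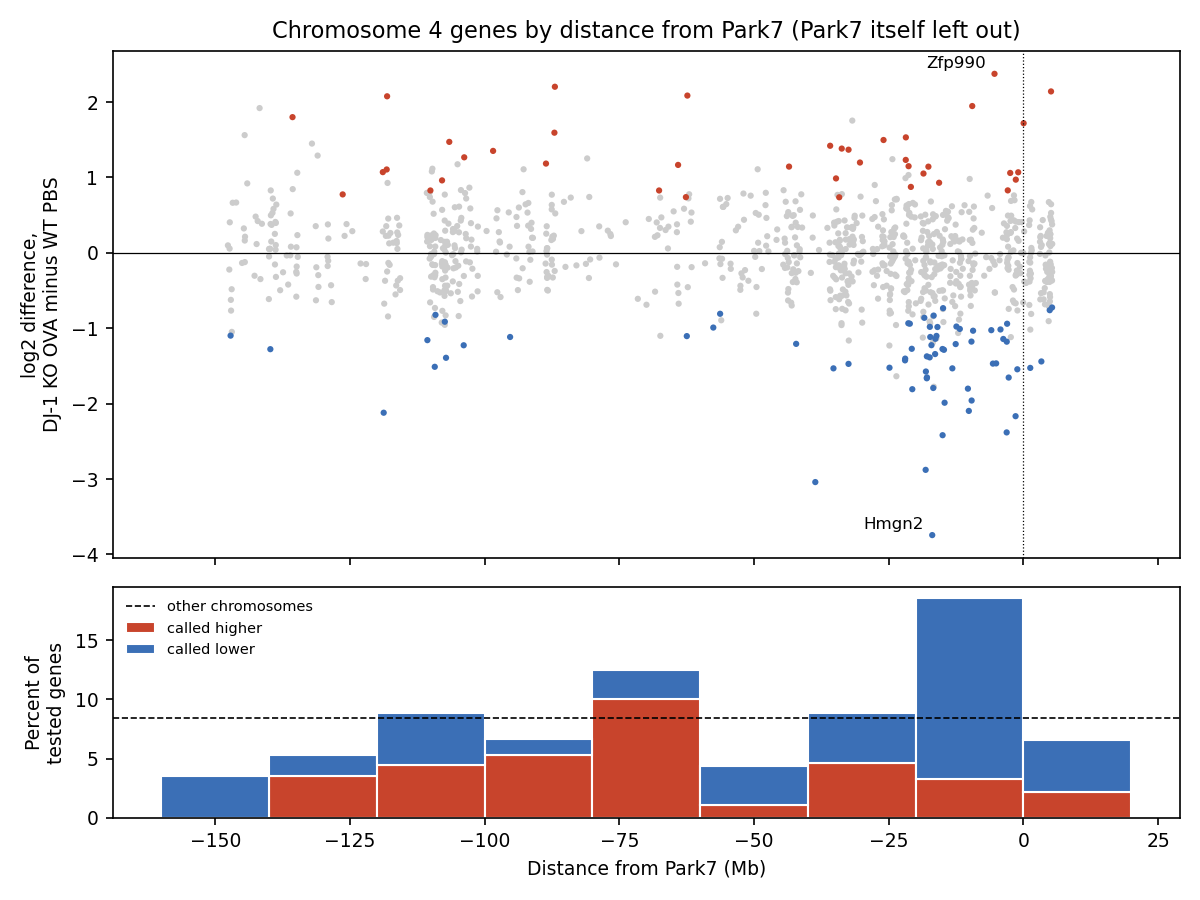
Top, the log2 difference of each tested gene of chromosome 4 (DJ-1 KO OVA minus WT PBS) against its distance from Park7 in Mb, with called genes in red (higher) and blue (lower); bottom, the percent of genes called in bins of 20 Mb, with the 8.41% of the other chromosomes as a dashed line. The bin just before Park7 reaches 18.5%, most of it lower.

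Away from chromosome 4, the annotated gene with the smallest adjusted p was Gm42031, a long noncoding RNA on chromosome 8, chosen after its values were seen. It was at 0 FPKM in WT PBS, 0.0553, 0.0232 and 0 FPKM in WT OVA and 23, 31.3 and 17.5 FPKM in DJ-1 KO OVA, at least 352-fold higher (adjusted p = 7.35e-07). Tff1, a trefoil peptide of mucus-secreting epithelium, was at 0 FPKM in WT PBS, 0.741, 0 and 0.579 FPKM in WT OVA and 0.455, 1.63 and 1.4 FPKM in DJ-1 KO OVA, at least 6.36-fold higher (adjusted p = 0.025), a call lost without WT PBS 1, 2 or 3 or DJ1_KO_OVA_267 (adjusted p 0.079, 0.083, 0.06 and 0.099).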

How the data were processed

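RNA from total lung cells was sequenced in 9 libraries, 3 per group. The authors deposited 1 table of gene FPKM, made with Trimmomatic, HISAT2 and HTSeq on GRCm38.p6, per the submitters' processing notes (versions and strand setting not given in the sources used here). Without a known strand, overlapping and antisense genes are uncertain. Low FPKM values were whole multiples of 1 read within 0.01 for 100% of values, which gave the depth of each library (20812192 to 29080130 reads) and the counts for the voom alternative. The library size in the deposited FPKM was 0.89 to 1.21 times that total. Genes with a mean of at least 0.2 FPKM were tested on log2(FPKM + 0.5) with limma 3.58.1 (R 4.3.3), with a trend, over all 9 libraries in 3 groups, without covariates, and p-values were adjusted by Benjamini-Hochberg. The script was tested on simulated data. Alternatives were pseudocounts of 0.1 and 1, no filter, a mean of at least 1 FPKM, equal FPKM sums, quantile normalization, the 6 libraries alone, limma without the trend, limma-voom on recovered reads and leaving out each library. Python 3.11.15 was used for summaries.

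Named genes were taken by a rule: from the called genes without overlap, the 12 strongest rises and the 12 strongest falls with at least 1 FPKM in the higher group, without predicted genes, receptor segments and pseudogenes, up to 4 members of smallest p from each of 41 gene lists, key genes of allergy and lung, and up to 8 called genes within 10 Mb of Park7. Other members named were chosen after their values were seen. The comparison and the lists were chosen with earlier results of these data known. Promoter sequences are from RefSeq (GRCm38.p6). One gene that the rule names is not reported here.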

Additional observations from a re-analysis of the deposited data

How the results depend on the processing

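None of the 138 named genes that were called changed direction under any of the 15 alternatives. Rescaling to equal FPKM sums turned the sign of the median of 6 of the 41 lists, among them NRF2 targets and antioxidant enzymes (-0.25 to 0.05) and oxidative phosphorylation (-0.13 to 0.17), and quantile normalization that of 2. The balance of calls turned from more lower to more higher with equal sums (968 higher, 432 lower) and without DJ1_KO_OVA_263 (770 and 514) or DJ1_KO_OVA_267 (257 and 229). Rag1, which was not called, went from a log2 difference of 1.65 to -0.69 without DJ1_KO_OVA_263. The count of genes called higher (721) was 327 with no filter on low values and 318 with the 6 compared libraries alone, and from 197 to 1902 with 1 library left out. The count called lower (792) was 432 when FPKM sums were made equal, 342 with no filter and 382 with the 6 libraries alone, and from 229 to 1995 with 1 library left out. Of the 138 genes, 80 were called in every alternative and 58 were lost in at least 1: 43 with no filter, 36 with the 6 libraries, 14 after rescaling, 9 after quantile normalization, 0 with limma-voom on recovered reads and from 3 to 53 with 1 library left out. The cause of these changes was not tested. With 3 libraries a group, small differences in genes of low depth were not detectable. No paired analysis was possible because the groups share no replicate numbers.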

Other observations

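Long noncoding RNAs were called lower more than higher in DJ-1 KO OVA: 112 of 1237 tested were lower and 20 higher than in WT PBS, with a median log2 difference of -0.23, beside 556 lower and 614 higher of 13897 protein-coding genes with a median of 0.04. After rescaling to equal FPKM sums, 67 long noncoding RNAs were lower and 32 higher, with a median of -0.08, beside a median of 0.29 for protein-coding genes. The variable segments of T cell receptors had a median log2 difference of 0.74 over 82 segments. Of these, 5 were called higher and none lower, against 4.07% and 4.47% of all genes. DJ1_KO_OVA_263 was the library with thymocyte genes. Its part in that value was not tested.

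The last lists covered red blood cells, interferon-stimulated genes and the circadian clock. None of 8 red blood cell genes was called by limma or limma-voom, and 2 had an unadjusted p below 0.05, with a median log2 difference of -1.53. Of 19 interferon-stimulated genes, 4 were lower, against 4.47% of all genes, and without WT PBS 1 none was. Among the 4 were Oas2 (2.25-fold, adjusted p = 0.0106) and Irf7 (2.65-fold, adjusted p = 0.019). Of 15 circadian clock genes, 1 was called higher, against 4.07% of all genes. This was Hlf, at 0.63, 0.634 and 0.842 FPKM in WT PBS and 2.33, 2.2 and 4.69 FPKM in DJ-1 KO OVA (2.85-fold higher, adjusted p = 0.00853).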
